A study of Mus musculus with 10 samples.

Results

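The vascular endothelial growth factor (VEGF) and angiopoietin axis was examined here through 10 genes: the ligands Vegfa, Vegfb, Vegfc and Pgf, the receptors Kdr, Flt1 and Flt4, the angiopoietins Angpt1 and Angpt2, and their receptor gene Tek. The members were the rows of the gene count table that carry one of these names, 10 of 36009 genes, and all 10 passed the filter on low counts. RNA came from subcutaneous tumors of CT26, a single mouse colorectal carcinoma line, grown in wild-type (WT) female BALB/c mice. The mice were untreated when the tumor was partially resected, and a hydrogel loaded with poly(I:C), a synthetic double-stranded RNA, was then laid on the tumor left behind. The 6 responders were mice whose tumors later regressed completely and the 4 non-responders were mice whose tumors grew without delay. Mice were chosen for sequencing by that outcome, each library is the resected piece of 1 tumor, and the labels gave no age and no sequencing batch. The comparison addressed whether expression of these genes before treatment differed between tumors with either outcome.

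VEGF-A, acting on the tyrosine kinase receptor encoded by Kdr, is the main driver of endothelial growth and permeability. The receptor encoded by Flt1 binds VEGF-A, VEGF-B and placental growth factor (Pgf) with high affinity and weak kinase activity, and a secreted form acts as a decoy. VEGF-C acts mainly on Flt4 in lymphatic endothelium. Angiopoietin-1 activates Tek, also called Tie2, and steadies vessels, while angiopoietin-2 is released by activated endothelium and can antagonize Tek. In tumors the axis shapes vessel density, vessel leakiness and the entry of leukocytes.

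Total estimated counts ran from 29065126 to 38042544 in responders and from 23374649 to 32986456 in non-responders, so responder libraries tended to be deeper. Levels are in CPM, that is, counts scaled to the size of each library. Of 16041 genes tested, 1293 were called at an adjusted p under 0.05 (edgeR quasi-likelihood test with Benjamini-Hochberg adjustment), a share of 8.06%, with 756 higher (4.71%) and 537 lower (3.35%) in responders. That count was unstable, with 0 genes called without non-responder 4, 16 without non-responder 1 and 17 without responder 3. At an unadjusted p under 0.05 stood 29.1% of the genes tested, and the groups did not overlap for 10.4%. Markers of colorectal epithelium were sparse: 6 of 12 passed the filter, Cdx1 stayed under 3 counts in every tumor, and Krt20 was the highest, at 29.1 CPM in responders and 52.9 CPM in non-responders. Blood endothelial markers were present in every tumor, with all 15 tested and Pecam1, Cdh5 and Ecscr among them.

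Flt1 was the only member called and did not overlap between the groups. Estimates were lower in responders for 5 members and higher for the other 5, and 4 of 10 members had an unadjusted p under 0.05, against the 29.1% of all genes. The share of members called, 1 of 10, stood beside the 8.06% of all genes. In absolute size the members had a median log2 fold change of 0.31, against 0.13 over all genes tested, and the signed medians were 0.07 and -0.01. That comparison was not matched for level, and Vegfc, with the largest estimate at 0.51, rested on 11 to 38 counts a tumor. In a bulk sample fewer cells of a type and less RNA per cell cannot be told apart, which holds for every difference given here.

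**Figure D1:**
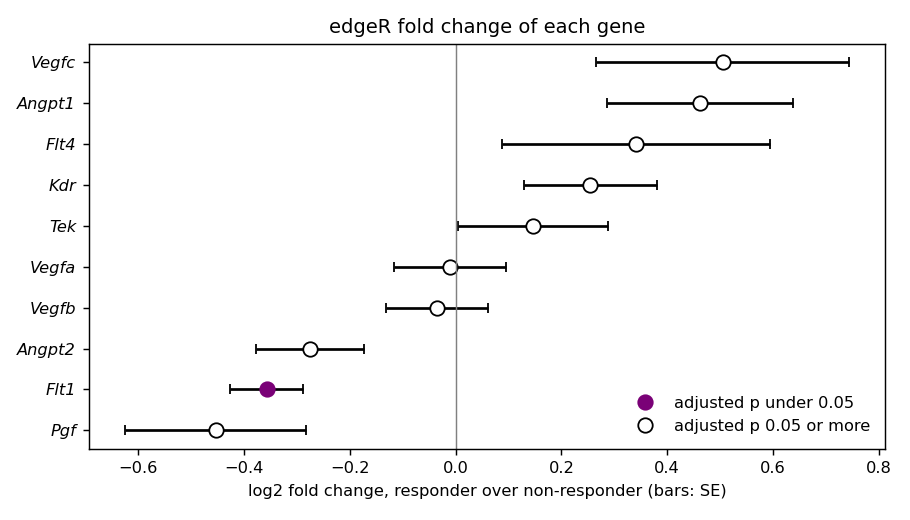
Fold changes of the 10 genes, as log2 of responder over non-responder on the horizontal axis, with bars of 1 SE from edgeR. Flt1, at -0.36, is the filled point with an adjusted p under 0.05, and the open points run from Pgf at -0.45 to Vegfc at 0.51.

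Levels between genes were compared per length, as CPM per kilobase of exon sequence over all 10 tumors. Vegfa was the most abundant member at 42.7 ± 5.03 CPM per kb (SD, n = 10), followed by Vegfb at 12.5 ± 1.34 and Flt1 at 9.04 ± 1.34. Each of these ranges was apart from the next in the order. Angpt2 (2.23 ± 0.309 CPM per kb), Pgf (2.10 ± 0.530), Angpt1 (1.65 ± 0.391) and Kdr (1.02 ± 0.170) followed, with overlapping ranges between neighbors. Below them came Tek at 0.539 ± 0.0739 CPM per kb, apart from Kdr, then Vegfc at 0.273 ± 0.0798 and Flt4 at 0.120 ± 0.0371, again with overlapping ranges between neighbors. Per kb of exon, the level of Flt1 was thus 8.84 times that of Kdr and 75.1 times that of Flt4, and the level of Vegfa was 20.3 times that of Pgf. When the longest annotated transcript was used as the length, Flt1 (17.7 CPM per kb) passed Vegfb (15.7) with overlapping ranges and Pgf passed Angpt2, while Vegfa stayed at the top and Flt4 at the bottom. The gene counts sum all annotated transcripts, so membrane-bound and secreted forms of Flt1 are not separated.

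**Figure D2:**
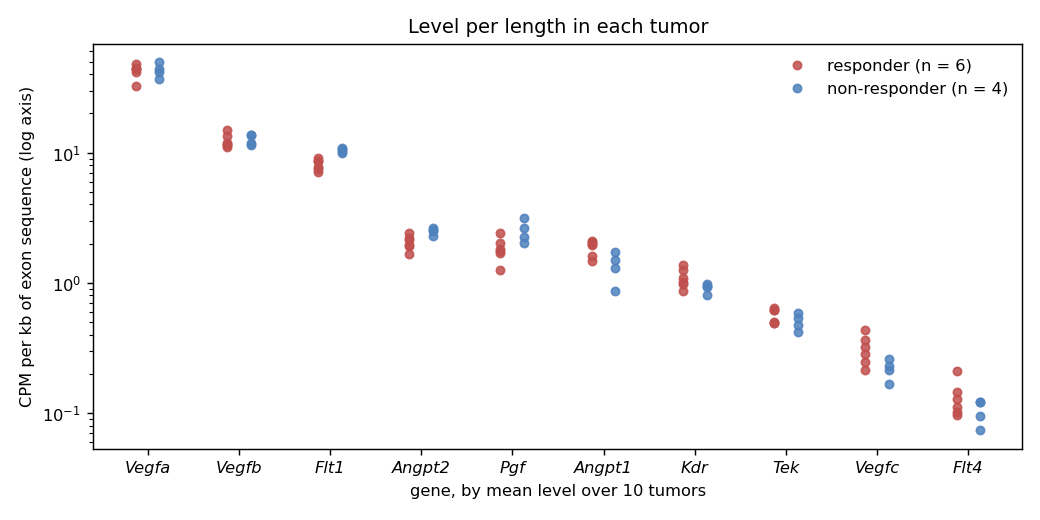
Level of each gene in each tumor, as CPM per kb of exon sequence on a log axis, with genes ordered by their mean over 10 tumors. Vegfa, at a mean of 42.7, leads the order and Flt4, at 0.120, ends it, and the responder and non-responder points separate for Flt1 only.

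Among the receptors of VEGF-A, the 2 genes lie on the same chromosome and strand. Flt1 (ENSMUSG00000029648) spans chr5:147561604-147726011 and Kdr (ENSMUSG00000062960) spans chr5:75932827-75978458, both on the minus strand of GRCm38. Because the hypoxia-inducible factors (HIF) are known regulators of the axis, the RefSeq promoter windows of the members were searched for the 5-letter HIF core ACGTG or GCGTG on both strands. The core ACGTG can overlap its own reverse complement, as in CACGTG, which is also an E-box. A window is 300 bases, 250 before and 50 after the annotated start. Windows were found for 8 members. Vegfa and Pgf had 2 each, of which the one nearest the 5′ end of the gene span was used. Of the 8 members, 4 (Vegfb, Pgf, Kdr and Flt1) held a match. Of all 32851 windows, with every window of a gene counted, 43.8% did. The annotated starts in the Pgf and Flt4 windows lay 477 and 416 bases from the 5′ end of the gene span. Of these windows, only the sequences of Flt1 and Kdr, the receptors of VEGF-A, are shown. They give the 250 bases before the start on GRCm38.p6, 5′ to 3′ on the minus strand, at chr5:147726012-147726261 for Flt1 and chr5:75978456-75978705 for Kdr, with each match in capitals.
Flt1: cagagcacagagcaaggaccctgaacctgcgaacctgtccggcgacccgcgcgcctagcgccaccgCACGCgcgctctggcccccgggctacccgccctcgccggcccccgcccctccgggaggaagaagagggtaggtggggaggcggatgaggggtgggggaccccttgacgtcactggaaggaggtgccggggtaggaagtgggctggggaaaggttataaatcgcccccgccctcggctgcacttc
Kdr: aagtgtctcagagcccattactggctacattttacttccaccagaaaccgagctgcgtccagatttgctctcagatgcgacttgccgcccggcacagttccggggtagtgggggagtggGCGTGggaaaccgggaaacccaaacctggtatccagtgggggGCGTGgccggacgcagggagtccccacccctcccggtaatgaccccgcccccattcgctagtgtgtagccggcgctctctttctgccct
The Flt1 window held 1 match, which begins at position -184 and reads on the opposite strand, and the Kdr window held 2. The Pgf match began at position -124, and the Vegfa window held 0. These matches describe letters in a window and carry no evidence of binding. Sequence outside the windows was not searched, so a window with 0 matches does not show that the gene lacks the core.

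Flt1 was lower in responders. Its level was 139.0, 134.0, 144.0 and 145.4 CPM in non-responders 1 to 4. In responders the lowest value was 95.3 CPM, the median 111.1 and the highest 122.7, so the groups did not overlap and the nearest tumors were responder 2 and non-responder 2. Mean ± SD came to 109.8 ± 10.7 CPM over 6 responders and 140.6 ± 5.20 CPM over 4 non-responders, and the log2 fold change was -0.36 ± 0.07 (SE), with an edgeR adjusted p of 0.0253. Responders 5 and 6, at 95.3 and 101.3 CPM, were the lowest of all 10 tumors. The direction held whichever tumor was left out, with log2 fold changes from -0.39 to -0.32, but the edgeR adjusted p was 0.0622 without responder 3, 0.0586 without non-responder 1, 0.0507 without non-responder 3 and 0.0719 without non-responder 4.

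Kdr, which encodes the main signaling receptor of VEGF-A, had a higher estimate in responders that did not pass. It was at 8.92, 8.36, 8.54 and 7.30 CPM in non-responders 1 to 4. In responders the lowest value was 7.79 CPM, the median 9.50 and the highest 12.3, with 4 of the 6 responders above every non-responder. The highest levels were in responders 3 and 5, at 12.3 and 11.2 CPM. Over the 6 responders the mean ± SD was 9.87 ± 1.65 CPM and over the 4 non-responders 8.28 ± 0.695 CPM, which gave a log2 fold change of 0.25 ± 0.13 (SE) at an edgeR adjusted p of 0.203. Flt4 (ENSMUSG00000020357, chr11:49609263-49652739, plus strand), which encodes the receptor of VEGF-C, averaged 1.09 ± 0.344 CPM (± SD) over 6 responders and 0.847 ± 0.192 CPM over 4 non-responders. Its estimate was 0.34 ± 0.25 (SE) at an edgeR adjusted p of 0.398. Flt4 rested on 15 to 50 counts a tumor, and 1 tumor, responder 3 at 1.72 CPM, was the highest of all. The estimate was 0.17 without responder 3 and 0.22 without non-responder 1.

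**Figure D3:**
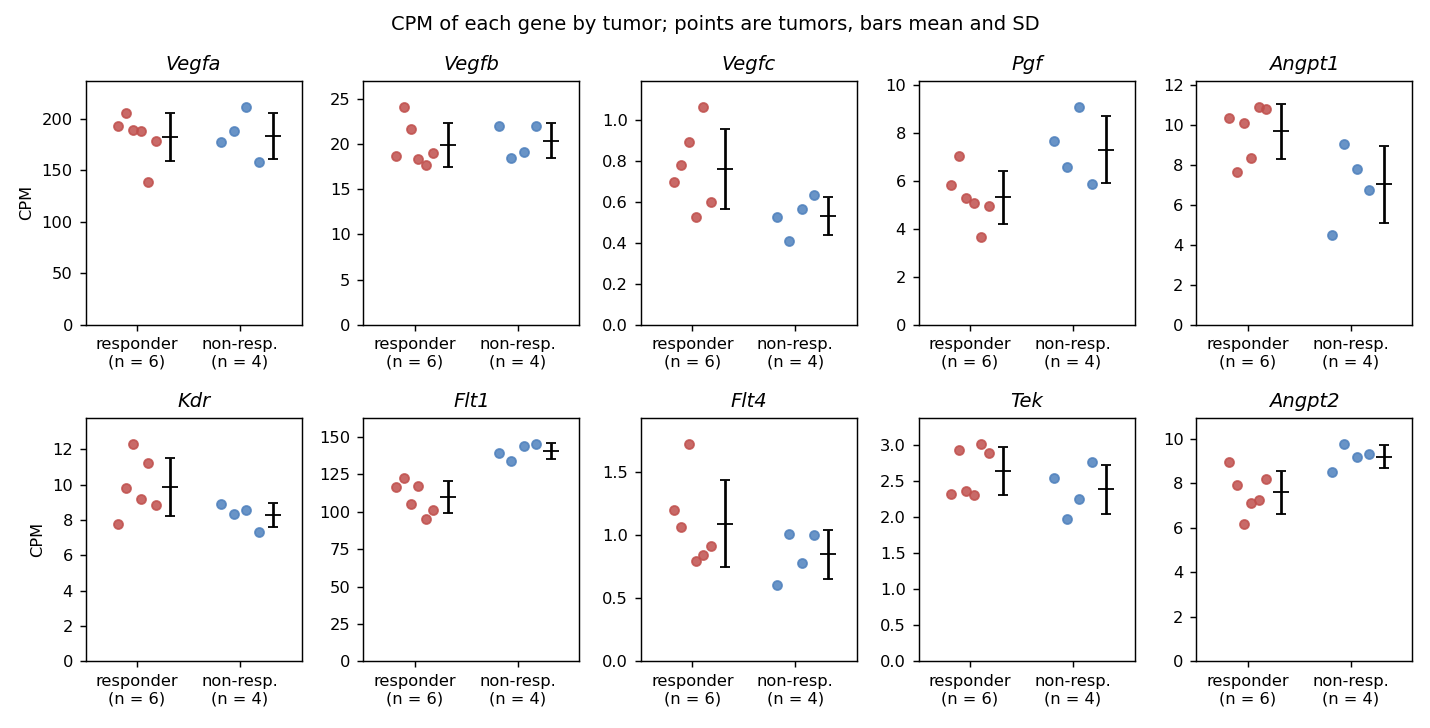
CPM of each gene in each tumor, on linear axes that start at 0, with bars of the mean and SD by group. The Flt1 responders, at 95.3 to 122.7 CPM, all lie below the non-responders at 134.0 to 145.4 CPM, while the points of the other genes overlap.

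Vegfa (ENSMUSG00000023951, chr17:46016993-46032369, minus strand), the best known hypoxia-induced ligand of the family, had close means in the groups. It was at 177.3, 188.1, 211.4 and 157.8 CPM in non-responders 1 to 4. In responders the lowest value was 138.6 CPM, the median 188.5 and the highest 206.1. The groups overlapped, and responder 5, at 138.6 CPM, was the lowest of all 10 tumors. Mean ± SD came to 182.2 ± 23.1 CPM over 6 responders and 183.7 ± 22.3 CPM over 4 non-responders, and the log2 fold change was -0.01 ± 0.11 (SE), with an edgeR adjusted p of 0.956.

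Pgf (ENSMUSG00000004791, chr12:85166635-85177790, minus strand), a ligand of Flt1 and not of Kdr, had a lower estimate in responders. It was at 7.63, 6.57, 9.06 and 5.85 CPM in non-responders 1 to 4. In responders the lowest value was 3.67 CPM, the median 5.19 and the highest 7.02, with 5 of the 6 responders below every non-responder. Responder 2 was the exception and lay above non-responders 2 and 4. Mean ± SD came to 5.30 ± 1.10 CPM over 6 responders and 7.28 ± 1.40 CPM over 4 non-responders. The log2 fold change was -0.45 (SE 0.17), with an unadjusted p of 0.0222 and an edgeR adjusted p of 0.109 that did not pass.

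Vegfb (ENSMUSG00000024962, chr19:6982473-6987651, minus strand), another ligand of Flt1, averaged 19.9 ± 2.45 CPM (± SD) over 6 responders and 20.4 ± 1.91 CPM over 4 non-responders. Its values ran from 17.7 to 24.1 CPM in responders and from 18.4 to 22.0 CPM in non-responders, with a log2 fold change of -0.04 ± 0.10 (SE) at an edgeR adjusted p of 0.844. Vegfc (ENSMUSG00000031520, chr8:54077606-54187096, plus strand), the lymphatic growth factor, was near the floor of the data at 11 to 38 counts a tumor. Counting error alone came to 30.2% of the count in the tumor with the fewest. It averaged 0.761 ± 0.197 CPM (± SD) over 6 responders and 0.533 ± 0.0932 CPM over 4 non-responders, with 4 of 6 responders above all non-responders. Its log2 fold change was 0.51 ± 0.24 (SE) at an edgeR adjusted p of 0.187, which did not pass.

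The angiopoietins had estimates of opposite sign, and neither passed alone. Angpt2 (ENSMUSG00000031465, chr8:18690263-18741562, minus strand), the context-dependent antagonist of Tek, was at 8.52, 9.78, 9.19 and 9.32 CPM in non-responders 1 to 4. In responders the lowest value was 6.16 CPM, the median 7.59 and the highest 8.96. Of 6 responders, 5 lay below all non-responders, and responder 1 lay above non-responder 1 only. Over the 6 responders the mean ± SD was 7.60 ± 0.972 CPM and over the 4 non-responders 9.20 ± 0.521 CPM, which gave a log2 fold change of -0.28 ± 0.10 (SE) at an edgeR adjusted p of 0.102, and an unadjusted p of 0.0197. The span of Angpt2 lies over that of Mcph1, with no shared exon positions.

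Angpt1 (ENSMUSG00000022309, chr15:42424723-42676977, minus strand), the agonist of Tek, was at 4.48, 9.03, 7.80 and 6.76 CPM in non-responders 1 to 4. In responders the lowest value was 7.65 CPM, the median 10.2 and the highest 10.9, with 4 of the 6 responders above every non-responder. Non-responder 1 was the lowest of all 10 tumors. Mean ± SD came to 9.67 ± 1.36 CPM over 6 responders and 7.02 ± 1.93 CPM over 4 non-responders, and the log2 fold change was 0.46 ± 0.18 (SE), with an edgeR adjusted p of 0.111, and an unadjusted p of 0.0228. Without non-responder 1 it was 0.31 (edgeR adjusted p of 0.225), and with the macrophage marker score as a covariate it was -0.16 (edgeR adjusted p of 0.923). Angpt1 shares exon positions with Gm17473 on the other strand, and with no strand setting given, reads of the pair cannot be told apart. Tek (ENSMUSG00000006386, chr4:94739289-94874976, plus strand) averaged 2.64 ± 0.339 CPM (± SD) over 6 responders and 2.39 ± 0.346 CPM over 4 non-responders, with a log2 fold change of 0.15 ± 0.14 (SE) at an edgeR adjusted p of 0.530. Its groups overlapped, from 2.31 to 3.02 CPM and from 1.98 to 2.77 CPM. The estimate was 0.067 without non-responder 2 and 0.23 without non-responder 4.

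Ratios between members within a tumor depend little on how libraries are scaled, and gene length cancels in the difference between groups. All 3 ratios compared were lower in responders, and in each the 6 responders lay below the 4 non-responders with no overlap. Among all 128648820 pairs of genes tested, 9.94% separate the groups in this way in either direction. The tests were exact two-sided permutation tests over the 210 splits of the tumors, whose smallest possible p is 0.00476, with adjustment over the 3 ratios. The ratios share genes and tumors with the tests of single genes above. Flt1, Pgf, Angpt2 and Angpt1, the members with an unadjusted edgeR p under 0.05, all enter them. The ratios were chosen with earlier results of these data known. Neither the p-values nor the adjustment over the 3 ratios takes that into account.

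The log2 ratio of Angpt2 to Angpt1, antagonist over agonist of the same receptor, was 0.92, 0.11, 0.23 and 0.46 in non-responders 1 to 4. In responders 1 to 6 it was -0.20, 0.05, -0.70, -0.22, -0.58 and -0.39. Responder 2 and non-responder 2 were the nearest tumors. Mean ± SD was -0.34 ± 0.276 over 6 responders and 0.43 ± 0.354 over 4 non-responders, giving a group difference of -0.77 (exact permutation p 0.00476, adjusted over the ratios 0.00714).

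The log2 ratio of Flt1 to Kdr, decoy-like over signaling receptor, was 3.95, 3.99, 4.07 and 4.30 in non-responders 1 to 4. In responders 1 to 6 it was 3.89, 3.63, 3.09, 3.67, 3.08 and 3.50. Responder 1 lay close to non-responder 1, while responders 3 and 5 were the lowest. Mean ± SD was 3.48 ± 0.329 over 6 responders and 4.08 ± 0.158 over 4 non-responders, giving a group difference of -0.60 (exact permutation p 0.0143, adjusted over the ratios 0.0143).

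The log2 ratio of Pgf to Vegfa, which share the receptor Flt1, was -4.53, -4.83, -4.53 and -4.74 in non-responders 1 to 4. In responders 1 to 6 it was -5.03, -4.86, -5.14, -5.19, -5.22 and -5.16. Responder 2 and non-responder 2 were again the nearest tumors. Mean ± SD was -5.10 ± 0.133 over 6 responders and -4.66 ± 0.150 over 4 non-responders, giving a group difference of -0.44 (exact permutation p 0.00476, adjusted over the ratios 0.00714).

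**Figure D4:**
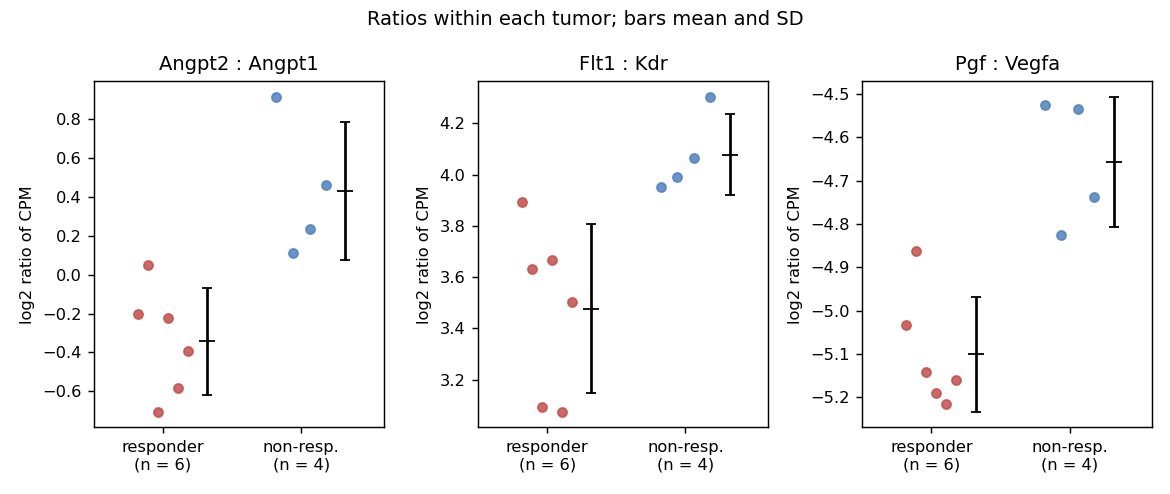
Log2 ratio of CPM within each tumor for 3 pairs of genes, with bars of the mean and SD by group. In each panel all 6 responders lie below all 4 non-responders, with differences in means of -0.77 for Angpt2 to Angpt1, -0.60 for Flt1 to Kdr and -0.44 for Pgf to Vegfa.

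The other ligands, co-receptors and regulators of these receptors did not move one way. Of 18 tested, 12 had higher and 6 lower estimates in responders, 1 rose and 2 fell, and the median log2 fold change was 0.03. Sema3f, a semaphorin that signals through neuropilin-2, rose from 11.6 ± 1.43 CPM in non-responders to 15.8 ± 0.871 CPM in responders (log2 fold change 0.44 ± 0.08 by SE, edgeR adjusted p of 0.0245). Sema3a, which competes for neuropilin-1, fell from 554.1 ± 41.7 CPM to 463.5 ± 30.6 CPM (log2 fold change -0.26 ± 0.06 by SE, edgeR adjusted p of 0.0398). Plxnd1, a plexin receptor that restrains VEGF signaling, was at 80.8 ± 5.39 CPM in responders and 101.9 ± 15.2 CPM in non-responders (log2 fold change -0.33 ± 0.09 by SE, edgeR adjusted p of 0.0446). Per kb of exon the co-receptor Nrp2 reached 35.5 ± 2.24 CPM (SD, n = 10), Nrp1 7.04 ± 0.994, the ligand Vegfd 6.88 ± 0.547 and Tie1, the partner of Tek, 1.09 ± 0.152.

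Downstream signaling proteins were also mixed. Of 29 tested, 17 had higher and 12 lower estimates, 2 rose and 3 fell, and the median log2 fold change was 0.05. The adaptor Grb2 and the kinase Fyn rose, with log2 fold changes of 0.28 ± 0.05 (SE) at an edgeR adjusted p of 0.0263 and 0.52 ± 0.13 (SE) at an edgeR adjusted p of 0.0378. Plcg1, the phospholipase that binds activated Kdr, fell by 0.23 ± 0.05 (SE) on the log2 scale at an edgeR adjusted p of 0.0283. The extracellular signal-regulated kinase gene Mapk3 and the kinase gene Src fell by 0.25 ± 0.06 (SE) at an edgeR adjusted p of 0.0413 and by 0.20 ± 0.05 (SE) at an edgeR adjusted p of 0.0445. These genes are used by many receptors and in leukocytes.

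Among genes of sprouting and Notch-signaling endothelial cells, 15 of 23 tested had higher and 8 lower estimates, 3 rose and 2 fell, and the median log2 fold change was 0.04. Those that rose were Efnb2, an arterial ephrin (log2 fold change 0.47 ± 0.09 by SE, edgeR adjusted p of 0.0266), Fli1, an ETS factor of endothelial and blood cells (0.53 ± 0.11 by SE, edgeR adjusted p of 0.031), and Kcne3, a potassium channel subunit found in tip cells (edgeR adjusted p of 0.0371). Kcne3 was low, at 0.550 CPM in responders and 0.191 CPM in non-responders. The netrin receptor gene Unc5b fell by 0.53 ± 0.14 (SE) on the log2 scale at an edgeR adjusted p of 0.0449, and the Notch target Heyl fell by 1.09 ± 0.29 (SE) at an edgeR adjusted p of 0.0461. The Notch ligand gene Dll4, the key gene of tip cells, averaged 2.15 CPM in responders and 2.09 CPM in non-responders.

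Other factors that promote or restrain vessel growth gave 14 higher and 8 lower estimates of 22 tested, 3 rose and 3 fell, and the median log2 fold change was 0.07. The chemokine gene Cxcl12 moved most, from 26.2 ± 5.16 CPM in non-responders to 62.7 ± 15.7 CPM in responders (log2 fold change 1.26 ± 0.20 by SE, edgeR adjusted p of 0.0207). Eng, a TGF-beta co-receptor of endothelial cells, rose from 19.4 ± 2.84 to 30.3 ± 4.80 CPM (0.64 ± 0.13 by SE, edgeR adjusted p of 0.0266), and the growth factor gene Mdk rose from 0.464 to 0.860 CPM (0.87 ± 0.23 by SE, edgeR adjusted p of 0.0432). Col18a1, the collagen that yields endostatin, fell from 490.6 ± 77.2 to 272.7 ± 54.0 CPM (log2 fold change -0.85 ± 0.15 by SE, edgeR adjusted p of 0.0231). Serpinf1, which encodes the angiogenesis inhibitor PEDF, fell by 0.41 ± 0.09 (SE) on the log2 scale at an edgeR adjusted p of 0.0311, and Angptl2, an angiopoietin-like factor, fell by 0.26 ± 0.07 (SE) at an edgeR adjusted p of 0.0453. In these 4 lists the percentages called were 16.7%, 17.2%, 21.7% and 27.3% in the order given, beside the 8.06% of all genes. The lists were chosen with earlier results of these data known. Their shares were not matched for level, and whether they exceed that of all genes was not tested.

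Genes of the hypoxia response showed no call. Of 27 genes induced through HIF, 10 had higher and 17 lower estimates, 0 were called by edgeR, 4 had an unadjusted p under 0.05, and the median log2 fold change was -0.07. The smallest p-values were for Pfkfb4 (0.32 ± 0.09 by SE, edgeR adjusted p of 0.059), Mxi1 (-0.19 ± 0.08 by SE, edgeR adjusted p of 0.133) and Pfkfb3 (0.42 ± 0.18 by SE, edgeR adjusted p of 0.141). Of 8 HIF subunits and regulators, 5 had higher and 3 lower estimates, the median log2 fold change was 0.05, and 0 were called or had an unadjusted p under 0.05. The closest were Arnt2 (0.32 ± 0.15 by SE, edgeR adjusted p of 0.194), Egln2 (0.13 ± 0.06 by SE, edgeR adjusted p of 0.206) and Hif1an (-0.09 ± 0.04 by SE, edgeR adjusted p of 0.220).

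Vegfa followed the hypoxia genes across tumors. With the mean log2 CPM of the 27 genes as a hypoxia score, Pearson's r was 0.942 over 10 tumors (permutation p = 0.00024, adjusted p = 0.0012 over the 5 relations computed) and Spearman's rho was 0.842 (permutation p = 0.00378, adjusted p = 0.0189). Among responders alone (n = 6) r came to 0.935 (exact permutation p = 0.05, adjusted p = 0.132) and rho was 0.600 (exact permutation p = 0.242). Without responder 5 and non-responder 4, the tumors farthest from the median score, r was 0.741 (exact permutation p = 0.0376, adjusted p = 0.136), so the relation rested in part on those tumors. With 4 tumors, the non-responders gave no value of their own.

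Of Tek, Kdr and Flt4, Tek had the highest r and rho with the blood endothelial marker score over all 10 tumors and was the one to pass. That score is the mean log2 CPM of the 15 markers, none of them a member. For Tek r was 0.775 (permutation p = 0.0102, adjusted p = 0.0255) and rho 0.794 (permutation p = 0.00865, adjusted p = 0.0216). It was 0.746 within the responders (exact permutation p = 0.0528, adjusted p = 0.132) and 0.671 without responder 5 and non-responder 4 (exact permutation p = 0.0706, adjusted p = 0.136), and neither passed. Without those tumors rho was 0.714 for Tek and 0.738 for Flt4, while r was 0.671 for Tek and 0.536 for Flt4. The order of Tek and Flt4 without those tumors thus differed between rho and r. For Kdr r was 0.249 (permutation p = 0.490, adjusted p = 0.490) and rho 0.285 (permutation p = 0.428), and for Flt4 r was 0.255 (permutation p = 0.485, adjusted p = 0.490) and rho 0.4303 (permutation p = 0.222). The Flt1 groups did not overlap, so r is given for responders alone, at -0.394 (exact permutation p = 0.457, adjusted p = 0.571), with rho at -0.257 (exact permutation p = 0.658). Its r over all 10 tumors was also computed and counts among the 5 relations of the adjustment. That the relations with the endothelial score differ between receptors was not tested.

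**Figure D5:**
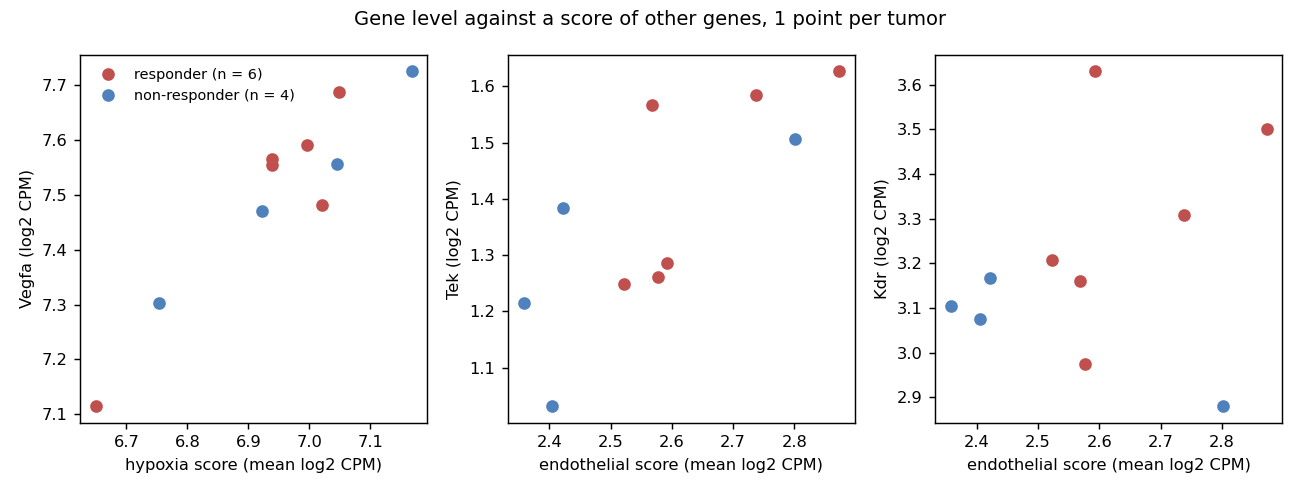
Log2 CPM of Vegfa against the hypoxia score and of Tek and Kdr against the blood endothelial score, with 1 point per tumor and scores as mean log2 CPM of their genes. Vegfa rises with the hypoxia score (r = 0.942) from responder 5 at the lower left, Tek rises with the endothelial score (r = 0.775), and Kdr is scattered (r = 0.249).

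Markers of other cells moved with the groups, beside the calls of Flt1 and of the ratios. Macrophage markers were higher in responders for 8 of 10, with 6 called (Adgre1, Cd68, C1qa, C1qb, C1qc and Aif1), and their summed level was 3057 to 4507 CPM in responders and 2179 to 2884 CPM in non-responders. Skeletal muscle markers were higher for 12 of 12, with 3 called (Acta1, Ckm and Myh1) and summed levels of 547.4 to 1491 CPM and 406.2 to 542.2 CPM. Adipocyte markers were higher for 9 of 9 tested, with 2 called (Pck1 and Pnpla2) and summed levels of 97.8 to 176.0 CPM and 67.8 to 96.2 CPM. In all 3 lists the summed levels did not overlap between the groups, and their part in the ratios was not tested.

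Blood endothelial markers had higher estimates for 13 of 15, with a median log2 fold change of only 0.07 and Eng called. Their summed level overlapped between the groups, at 173.8 to 251.8 CPM in responders and 136.3 to 202.7 CPM in non-responders. Of 4 lymphatic markers tested, 1 was higher and 0 were called, with 2 at an unadjusted p under 0.05 and summed levels of 69.4 to 82.6 CPM and 70.3 to 98.8 CPM. Most of that sum was Pdpn, which averaged 69.9 CPM in responders and 80.9 CPM in non-responders. The mean log2 CPM of the 4 was higher in responders, at 1.89 ± 0.433 (SD) against 1.40 ± 0.329. The marker with the higher estimate was Ccl21a, which was low, at 1.01 and 0.166 CPM. Of 11 pericyte and vascular smooth muscle markers tested, 5 were higher. Pdgfrb fell (log2 fold change -0.58, edgeR adjusted p = 0.0266) and Des rose (1.04, edgeR adjusted p = 0.044), with summed levels of 388.2 to 457.9 CPM and 412.1 to 543.4 CPM. Pdgfrb alone averaged 211.2 CPM in responders and 315.1 CPM in non-responders. The mean log2 CPM of the 11 was 3.56 ± 0.193 (SD) and 3.43 ± 0.185. Fibroblast markers were split at 5 of 10 higher, with Fap lower (log2 fold change -0.78, edgeR adjusted p = 0.0207) and summed levels of 5686 to 6792 CPM and 4845 to 7831 CPM. Of 6 epithelial markers tested, 2 were higher and 0 were called, with 3 at an unadjusted p under 0.05 and summed levels of 23.3 to 48.9 CPM and 45.6 to 90.5 CPM.

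With a marker score added to the edgeR fit as a covariate, the estimate of Flt1 stayed negative and did not pass. It was -0.35 ± 0.08 (SE) at an edgeR adjusted p of 0.0956 with the endothelial score, -0.24 (edgeR adjusted p = 0.717) with the skeletal muscle score, -0.25 (edgeR adjusted p = 0.650) with the adipocyte score and -0.17 (edgeR adjusted p = 0.791) with the macrophage score. With the macrophage score the estimates of Pgf and Vegfc were -0.015 and 0.015, and with the muscle score that of Vegfc was 0.0097. Over all genes these fits called 6, 0, 0 and 0, and 3449, 1093, 1225 and 1073 genes had a raw p under 0.05. The macrophage, muscle and adipocyte scores differed between the groups, so a term for any of them shares its variation with the response label, and how much of the Flt1 difference goes with either cannot be told apart.

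Members varied together to differing degrees over the 10 tumors, given here as r of log2 CPM without a test. All points share their libraries and their group differences. The strongest was negative, between Angpt2 and Kdr at -0.878. Flt1 and its ligand Pgf ran together at 0.834, Pgf and Vegfa at 0.724, and Angpt1 and Flt1 ran in opposition at -0.740. The other 41 pairs lay at or within 0.697 in size.

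The genes with the pattern most like each member were sought among 13256 genes with an average of at least 1 CPM, by r over the 10 tumors. Vegfa was closest to Lrp5 (0.980), the glucose transporter gene Slc2a1 (0.944) and the prolyl hydroxylase gene Egln3 (0.936). For Flt1 they were Disp2 (0.956), Tmem209 (0.953) and Sinhcaf (0.952), with 74 genes over 0.9. The groups did not overlap for Flt1, Disp2 or Sinhcaf, so r over both groups carries their shared group difference. For Kdr they were Nol3 (0.931), Hoxb3 (0.907) and Tpm2 (0.900). Angpt2 was closest to the matrix metalloproteinase gene Mmp3 (0.975), Timm10b (0.948) and Actr8 (0.941). Angpt1 was closest to Tmem140 (0.972), Rnd3 (0.970) and Arhgap25 (0.969), with 323 genes over 0.9, the most of any member.

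For Pgf the nearest were Stard13 (0.959), the syndecan gene Sdc1 (0.956) and Syde2 (0.943), and for Vegfb they were Atp5d (0.966), Fancf (0.926) and Irak1bp1 (0.923). Vegfc was nearest to Pccb (0.977), Pdlim5 (0.961) and Smap2 (0.955). Tek was nearest to Tlcd3a (0.905), Fn3krp (0.895) and Gas6 (0.895), and Flt4 to Vps53 (0.901), Rilpl1 (0.893) and Hip1r (0.876), each with 1 gene over 0.9. With 10 tumors and this many genes compared, high values arise for any pattern. They also carry any group difference and are given as a description.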

How the data were processed

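PolyA RNA of 10 resected tumors was sequenced in paired-end reads per the labels. The deposited values are estimated counts per gene, which the authors made with kallisto, a pseudoaligner, and collapsed from transcripts by tximport with mm10 (GRCm38) as reference, without scaling to depth. The annotation release, strand setting and tximport scaling are not given in the sources used here. Counts were rounded to whole numbers and fitted by edgeR 4.0.16 under R 4.3.3 (filterByExpr with a minimum count of 10 and a total of 15, TMM, glmQLFit and glmQLFTest, two-sided, Benjamini-Hochberg over 16041 genes, threshold 0.05). CPM used TMM-scaled library sizes, and log2 CPM a prior count of 2. The SE was taken as log2 fold change over the root of F. Ratios and correlations were tested by permutation in Python 3.11.15 (exact, or 100000 permutations over 10 tumors), with ranks from SciPy 1.17.1. Lengths and coordinates came from GENCODE on GRCm38.

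Groups follow the response in the labels. Tumors are numbered in accession order, which pairs nothing, and each is a separate mouse. The members, the gene lists and the ratios were chosen with earlier results of these data known. All members are named. From each pathway list the called genes are named, at most 6 by p, or the smallest p up to 3 genes where fewer than 3 passed. Marker lists are given by summed CPM and calls, and 3 genes are named as most like each member. Dll4 and the levels of Krt20, Nrp1, Nrp2, Vegfd and Tie1 were named outside this rule, after their values were seen. Alternatives were DESeq2 1.42.0, limma-voom (limma 3.58.1), DESeq2 size factors in edgeR, no filter, a prior count of 0.5, marker scores as covariates and each tumor left out. The edgeR step was tested on simulated data. Depth ran from 23374649 to 38042544 counts, and counting errors cover counting only.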

Additional observations from a re-analysis of the deposited data

Results flagged for a closer look

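Single tumors that lay apart were sought in 44 sets of values, each from 1 group, by the gap to the next tumor as a share of the whole spread. Were the sets separate, chance would give about 2.2 such sets, or 1 in 20, and 3 were found. They are not separate, since Vegfa and the hypoxia score, both flagged in responder 5, ran together over the 10 tumors (r = 0.942). The log2 CPM of Vegfa in responder 5 was 7.115, while the other responders were at 7.481 or above, a gap of 0.640 of the range. The hypoxia score of the same tumor was 6.65, with the other responders between 6.938 and 7.049, a gap of 0.721 of the range. The blood endothelial marker score of non-responder 4 was 2.802, above the other non-responders at 2.358 to 2.422, a gap of 0.856 of the range. Responder 5 and non-responder 4 are also the tumors farthest from the median of both scores.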

How the results depend on the processing

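The number of genes called was 1293, against 2584 with DESeq2, 6 with the endothelial score as covariate, 0 with the skeletal muscle, adipocyte or macrophage score, and 0 to 1897 with 1 tumor left out. It was 1082 with limma-voom, 1287 with DESeq2 size factors in edgeR and 931 without the filter. Of the members, 1 was called with DESeq2, limma-voom, DESeq2 size factors and no filter, 0 with each of the 4 covariates, and 0 to 1 with 1 tumor left out. The call of Flt1 was lost in 8 of 18 alternatives, with its direction kept in all 18.

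Some estimates changed sign, including that of Angpt1, which was 0.46 without covariates. Vegfa was at 0.11, 0.13, 0.12 and 0.23 with the endothelial, muscle, adipocyte and macrophage scores and at -0.078 to 0.062 with 1 tumor left out. Vegfb was at 0.14 with the macrophage score and -0.097 to 0.0086 with 1 tumor left out. Kdr was at -0.012 with the muscle score, and with the macrophage score Flt4 was at -0.0042 and Angpt1 at -0.16. The cause was not tested. Angpt2, Pgf, Vegfc and Tek kept their sign in all 18 alternatives.

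For Flt4 and the endothelial score within responders, r was -0.209 (exact permutation p = 0.664). There rho was 0.257 (exact permutation p = 0.658), so the measures differed in sign. For Tek and the same score r was 0.671 without responder 5 and non-responder 4 (n = 8) and 0.746 within responders (n = 6). For Vegfa and the hypoxia score it was 0.741 and 0.935 in the same order. None of these passed after adjustment, and over all 10 tumors r was 0.775 for Tek and 0.942 for Vegfa. The 3 ratios kept their direction and passed with a prior count of 0.5 and with each tumor left out, at -0.88 to -0.61 for Angpt2 to Angpt1, -0.68 to -0.52 for Flt1 to Kdr and -0.50 to -0.40 for Pgf to Vegfa. The groups did not overlap in any ratio, so leaving out 1 tumor could not change its direction and says little about stability. The largest adjusted exact permutation p was 0.0476, for Flt1 to Kdr without non-responder 4. Marker scores as covariates were not applied to the ratios.

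DESeq2 size factors moved the median log2 fold change by 0.0008. No paired analysis was possible because the tumor numbers follow accession order and pair nothing. Depth limits Vegfc and Flt4 most, with counts as low as 11 and 15. No batch was given, mice were selected by outcome, and the tumor left behind was not sampled.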
